A study of Mus musculus with 11 samples.

Results

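The choroid plexus is the secretory epithelium of the brain ventricles that makes cerebrospinal fluid. Its cells carry thyroid hormone and folate into that fluid, move water and bicarbonate across the epithelium, and release growth factor antagonists and hormone co-receptors. Most genes that mark these cells are also used elsewhere, by oligodendrocytes, meninges, peripheral neurons or neuronal precursors, so a level in whole tissue need not come from choroid plexus. The genes described here were chosen by name: Ttr, Kl, Folr1, Clic6, Aqp1, Enpp2, Otx2, Sostdc1, Prlr and Slc4a5, which are 10 of the 22609 genes in the deposited count table. All 10 passed the filter on low counts that left 17557 genes to test.

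PolyA RNA was sequenced from 11 mouse samples labelled as cerebellar hemisphere, from mixed-sex littermates on a mixed C57BL/6J;129 background. The 3 NFKO samples were Pcp2-Cre;NfascFx/Fx, which deletes Neurofascin, the 2 AnkGKO samples were Pcp2-Cre;AnkGFx/Fx, which deletes AnkyrinG (gene Ank3), and the 3 DKO samples carried Pcp2-Cre with both floxed alleles. The 3 controls had floxed alleles, and the sources differ on whether they also carried the Cre. Pcp2-Cre is a transgene active mainly in Purkinje cells, and not known for deletion in choroid plexus. The labels give the age as postnatal day 30 in one field and 32 in another. All mice were untreated and all libraries are labelled as 1 batch. The labels call the replicates biological without tying them to single mice, so p-values here measure the spread between these samples.

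Between 38890851 and 55822361 counts were assigned to genes in each library, and 3 counts, taken as the detection floor, correspond to 0.0546 to 0.0780 CPM, the count scaled to library size with TMM factors. Ank3 stood at 353 to 375 CPM in controls and 156 to 200 CPM in the 5 AnkGKO and DKO libraries, whereas Nfasc, which glia and many neurons also express, overlapped between NFKO (622 to 701 CPM) and control (661 to 718 CPM). The granule cell marker Gabra6 was at 84.2 CPM in control 1 and 59.0 CPM in NFKO 1, and at 4.41 CPM or less in the other 9 libraries. The Purkinje cell marker Pcp2 was at 26.3 and 28.3 CPM in those same libraries and at 2.14 CPM or less elsewhere. A list of 12 caudal Hox genes, which are used in spinal cord and caudal hindbrain, summed to 395 to 615 CPM in every library. The labelled tissue was therefore not matched by its own defining markers in most libraries. DKO 2 stood apart by 9 of 9 sensory neuron genes (summed to 340 CPM against 22 to 108 CPM elsewhere), and NFKO 2 by 14 of 14 meningeal fibroblast genes (1411 CPM against 165 to 517 CPM).

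The first question was how much choroid plexus RNA the libraries held. Levels of different genes were compared per kilobase of the Ensembl canonical transcript. Enpp2, which encodes the secreted lysophospholipase D autotaxin, stood far above the rest at a mean of 161 CPM per kb. The other 9 genes had means of 0.110 to 1.18 CPM per kb, in the order Prlr (1.18), Aqp1 (1.10), Kl (1.05), Ttr (0.970), Slc4a5 (0.613), Clic6 (0.609), Sostdc1 (0.448), Folr1 (0.257) and Otx2 (0.110). Apart from Enpp2, neighbours in this order overlapped in their ranges over the 11 libraries. Means that a single library set were lower without it: 0.590 CPM per kb for Ttr and 0.0402 for Otx2 without control 1, and 0.396 for Aqp1 without DKO 2. Enpp2 alone took 93.8% to 97.2% of the reads of the 10 genes.

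Ttr, the transthyretin gene and the most abundant transcript of choroid plexus epithelium, was among the low genes here. Its mean of 1.28 CPM exceeded that of 22.4% of the genes tested, and without control 1 its mean of 0.776 CPM exceeded that of 19.0%. Enpp2 exceeded 99.3% of them. A library with a sizeable piece of choroid plexus would be recognised by Ttr, Folr1, Otx2, Kcnj13, Kcne2 and their like together, and a list of 11 such defining genes (7 of them among the 10, with Kcnj13, Kcne2, Tmem72 and F5) summed to 11.3 to 25.4 CPM, with none of the 11 at or under the floor in every library. The group means of that sum were 17.7 CPM in control, 21.8 CPM in NFKO, 14.1 CPM in AnkGKO and 14.6 CPM in DKO. In bulk RNA, fewer cells of a type and less RNA per cell cannot be told apart.

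**Figure D1:**
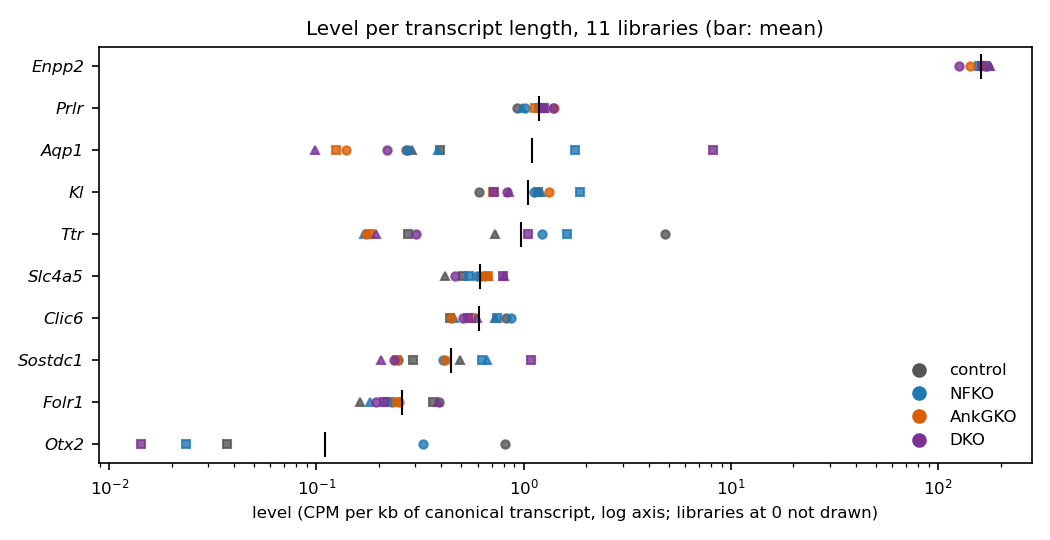
Level of each choroid plexus gene per kilobase of its canonical transcript (x axis, CPM per kb, log axis) with 1 point per library, coloured by genotype and shaped by replicate as circle, square or triangle for 1, 2 or 3; the vertical bar is the mean over 11 libraries. Enpp2 lies near 161 CPM per kb and every other gene has a mean of at most 1.18; Otx2 has no point for the libraries at 0.

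The 10 genes are scattered over the genome. On GRCm39 they lie at chr18:20797253-20807467 (Ttr), chr5:150876072-150917284 (Kl), chr7:101507537-101520014 (Folr1), chr16:92282624-92338739 (Clic6), chr6:55313068-55325540 (Aqp1), chr15:54701324-54816288 (Enpp2), chr14:48894099-48911276 (Otx2), chr12:36364137-36368451 (Sostdc1), chr15:10177258-10349959 (Prlr) and chr6:83196810-83281927 (Slc4a5). All are protein-coding, and counts are over their exons. Ttr, Enpp2, Otx2 and Prlr share exonic bases with an antisense RNA gene, and Prlr also with a protein-coding model on its own strand. Whether the counting used strand is not stated in the sources used here, so reads of these partners cannot be told apart from those of the 4 genes. Of the antisense partners, Otx2os1 has a row in the table.

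**Figure D2:**
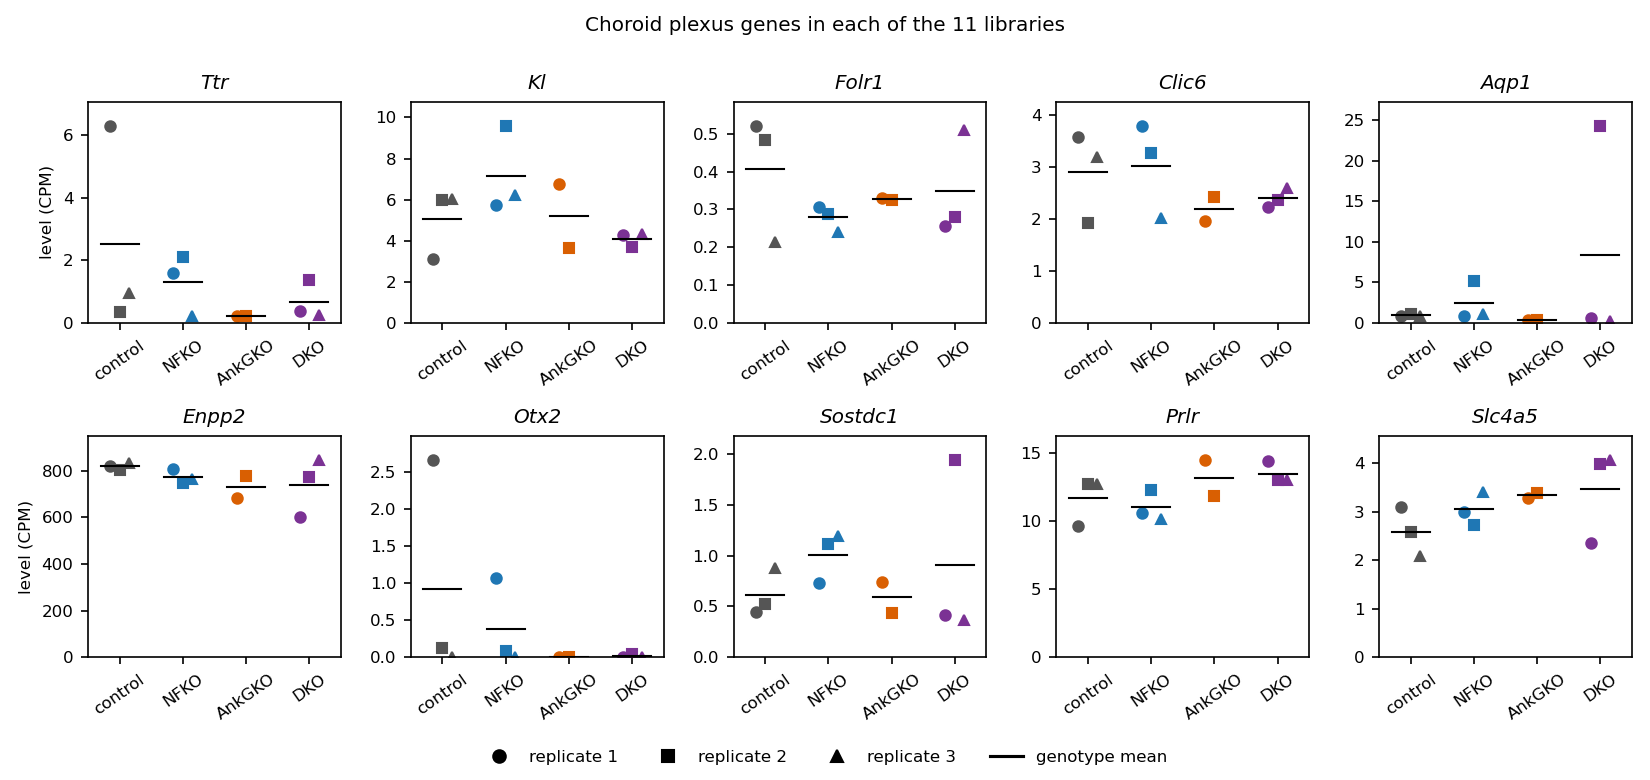
Level of each choroid plexus gene (y axis, CPM, from 0) in every library, grouped by genotype, with circles, squares and triangles for replicates 1, 2 and 3 and a line at the genotype mean. Single libraries stand far above the rest for Ttr and Otx2 (control 1) and Aqp1 (DKO 2), while Enpp2 and Prlr vary little.

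Among the genes for secreted and carrier proteins, Ttr varied most. It was at 6.29, 0.362 and 0.952 CPM in controls 1 to 3, at 1.61, 2.12 and 0.223 CPM in NFKO, at 0.227 and 0.239 CPM in AnkGKO and at 0.397, 1.38 and 0.255 CPM in DKO. Control 1 was the highest of all libraries and NFKO 3 the lowest, and the range from lowest to highest was 28.2-fold, wider than for 99.5% of genes measured over the floor in every library. Without control 1 it was 9.50-fold, wider than for 98.6% of them over the same libraries. Set against the controls, NFKO differed by -0.94 on the log2 scale (standard error 1.12, edgeR quasi-likelihood adjusted p = 0.970), AnkGKO by -3.42 (1.54, adjusted p = 0.934) and DKO by -1.91 (1.18, adjusted p = 0.691). Both AnkGKO libraries lay below all controls. Without control 1 the NFKO value became 1.01 and the DKO value 0.038, so the direction of both turned on that library, and the AnkGKO value became -1.47.

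Enpp2 varied least of the 10. It stood at 822, 801 and 835 CPM in controls, 807, 747 and 765 CPM in NFKO, 683 and 780 CPM in AnkGKO and 600, 774 and 845 CPM in DKO. Its range of 1.41-fold was close to the median of 1.39-fold over 15422 genes. The differences from control were -0.08 (NFKO, standard error 0.11), -0.16 (AnkGKO, 0.12) and -0.15 (DKO, 0.11) on the log2 scale. Nominal 95% intervals (1.96 standard errors either side) reached down to -0.29, -0.40 and -0.35. Enpp2 is also a gene of myelinating oligodendrocytes. A list of 15 oligodendrocyte genes, Mbp among them, summed to 30728 to 37566 CPM. The lowest Enpp2 level, in DKO 1, came with a sum of 31767 CPM. The highest, in DKO 3, came with 33544 CPM, under the median sum of 34115 CPM.

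Sostdc1, which encodes a secreted antagonist of BMP and Wnt signalling, was at 0.442, 0.523 and 0.881 CPM in controls, 0.727, 1.12 and 1.19 CPM in NFKO, 0.743 and 0.434 CPM in AnkGKO and 0.420, 1.94 and 0.364 CPM in DKO. DKO 2 was the highest of all libraries and the other 2 DKO libraries were the lowest. The log2 difference of DKO from control was 0.55 (standard error 0.59, adjusted p = 0.829) and became -0.65 without DKO 2. Folr1, the folate receptor that takes folate across the epithelium, gave 9 to 28 counts per library (0.214 to 0.520 CPM), a depth at which its largest difference from control, -0.54 in NFKO, had a standard error of 0.41.

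Among the membrane proteins, Aqp1 had the widest range, 83.3-fold over all 11 libraries and 18.0-fold without DKO 2. Aqp1 forms the water channel of the apical choroid plexus membrane and is also made by some sensory neurons and by vascular and fibrous tissue. It stood at 0.806, 1.17 and 0.857 CPM in controls, 0.823, 5.24 and 1.15 CPM in NFKO, 0.413 and 0.369 CPM in AnkGKO and 0.653, 24.3 and 0.291 CPM in DKO. DKO 2 and NFKO 2 were the only libraries above 1.17 CPM.

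The library with 24.3 CPM of Aqp1, DKO 2, held Scn10a at 54.0 CPM and Avil at 45.4 CPM, genes of nociceptive and other sensory neurons, against at most 0.424 and 0.867 CPM in any other library. All 9 genes of the sensory neuron list were highest there. The list summed to 22 to 43.7 CPM in control, 37.5 to 76.8 CPM in NFKO, 31.9 to 70.5 CPM in AnkGKO and 95.8 to 340 CPM in DKO, and Mrgprd was at 0 in 9 libraries. In NFKO 2, with 5.24 CPM of Aqp1, Col1a1 was at 368 CPM against at most 70.1 CPM elsewhere. The part of these cells in the Aqp1 values was not tested. The DKO difference of 3.14 from control (standard error 1.61, adjusted p = 0.661) became -1.03 without DKO 2.

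Kl, which encodes the FGF23 co-receptor Klotho, was at 3.12, 5.98 and 6.02 CPM in controls, 5.72, 9.57 and 6.22 CPM in NFKO, 6.75 and 3.63 CPM in AnkGKO and 4.27, 3.69 and 4.35 CPM in DKO. All 3 DKO libraries lay below all 3 NFKO libraries. That log2 difference was -0.80 (standard error 0.30, edgeR adjusted p = 0.227, unadjusted 0.0224). The meningeal fibroblast list summed to 445, 1411 and 517 CPM in NFKO and 294, 468 and 165 CPM in DKO, which overlap. It summed to 200 to 460 CPM in control and 204 to 403 CPM in AnkGKO, with none of its 14 genes at 0 in any library. A list of 7 Schwann cell genes summed to 551, 518 and 596 CPM in NFKO and 314, 395 and 163 CPM in DKO, which do not overlap. Its sums were 206 to 376 CPM in control and 238 to 450 CPM in AnkGKO. Without NFKO 2 the Kl difference was -0.54. The part of meningeal, Schwann or other cells in it was not tested.

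Prlr, the prolactin receptor, was at 9.62, 12.7 and 12.8 CPM in controls, 10.6, 12.3 and 10.1 CPM in NFKO, 14.5 and 11.8 CPM in AnkGKO and 14.4, 13.0 and 13.0 CPM in DKO. The 3 DKO libraries were above all 3 controls and all 3 NFKO libraries, by log2 differences of 0.20 (standard error 0.13, edgeR adjusted p = 0.697) and 0.29 (0.13, adjusted p = 0.306, unadjusted 0.0479). Clic6, an intracellular chloride channel family member, ranged from 1.93 to 3.79 CPM and overlapped between every knockout and control. Slc4a5, a sodium bicarbonate cotransporter, was at 3.09, 2.58 and 2.09 CPM in controls and at 3.28 and 3.39 CPM in AnkGKO, both above the controls. Its differences from control were 0.24, 0.37 and 0.42 in NFKO, AnkGKO and DKO (standard errors 0.22, 0.24 and 0.22, edgeR adjusted p = 0.946, 0.998 and 0.658).

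Otx2, the homeobox transcription factor that specifies choroid plexus and is also expressed in granule cell precursors and cerebellar lineages, was detected above the floor in 4 libraries. It had 102 counts in control 1, 56 in NFKO 1, 6 in control 2, 4 in NFKO 2 and 2 in DKO 2, and 0 counts in the other 6 libraries, where a count of 0 allows up to the floor of 3 counts (counting error only). In CPM these were 2.65, 1.07, 0.121, 0.0770 and 0.0467. The 4 libraries above the floor were also the 4 highest in Gabra6, at 84.2, 59.0, 4.41 and 4.24 CPM in the same order.

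The whole granule cell list of 8 genes summed to 1037 CPM in control 1 and 908 CPM in NFKO 1 and to 393 to 452 CPM in the other libraries. By genotype the sums were 408 to 1037 CPM in control, 393 to 908 CPM in NFKO, 399 to 406 CPM in AnkGKO and 395 to 452 CPM in DKO. None of the 8 genes was at 0 in any library, but Gabra6 was under the floor in NFKO 3 and both AnkGKO libraries. The part of granule cells in the Otx2 counts was not tested. No fold change is given for Otx2, because both AnkGKO libraries and 2 of the 3 DKO libraries were at 0.

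**Figure D3:**
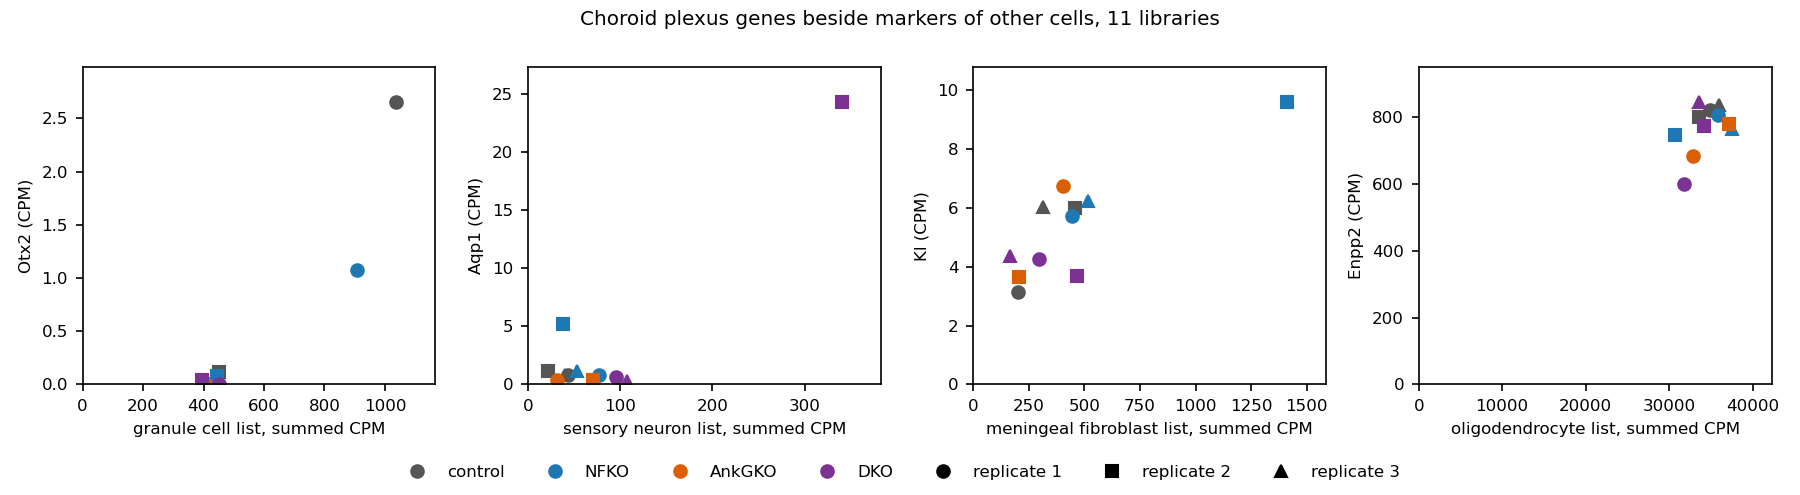
Levels of 4 choroid plexus genes (y axes, CPM) against the summed level of a marker list of other cells (x axes, CPM) in the 11 libraries, coloured by genotype and shaped by replicate. The highest Otx2, Aqp1 and Kl values come from control 1, DKO 2 and NFKO 2, each also the highest in the list plotted against it; for Enpp2 no library stands apart.

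The second question was whether the genotypes differed in these genes. A gene was called at an adjusted p below 0.05 with a log2 fold change of at least 0.6 in either direction. None of the 10 genes was called in NFKO, AnkGKO or DKO against control, where edgeR called 0.365%, 0.165% and 0.0228% of all genes tested. None was called in DKO against NFKO (0.615% of all genes), DKO against AnkGKO (0.171%), the interaction of the 2 knockouts (0.530%) or the test of any difference among the 4 genotypes (0.723%). DESeq2 also called 0 of the 10 in each, with no p or adjusted p for Aqp1, and called 0.945%, 0.582%, 0.272%, 2.53%, 0.613%, 1.83% and 6.76% of all genes in these 7 tests in the same order. At an unadjusted p under 0.05, edgeR found 2 of the 10, Kl and Prlr, in DKO against NFKO, where 16.2% of all genes passed. It found 0 of 10 in the other 6 tests, where 7.69% (NFKO), 5.39% (AnkGKO) and 7.77% (DKO) of all genes passed against control, 8.48% in DKO against AnkGKO, 10.3% in the interaction and 11.3% in the test of any difference. DESeq2 found 1 at that level in AnkGKO against control, 2 in DKO against NFKO, 1 in the interaction and 1 in the test of any difference. The share of all genes passing that level in DESeq2 was not counted, so these counts have no background to be read against.

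**Figure D4:**
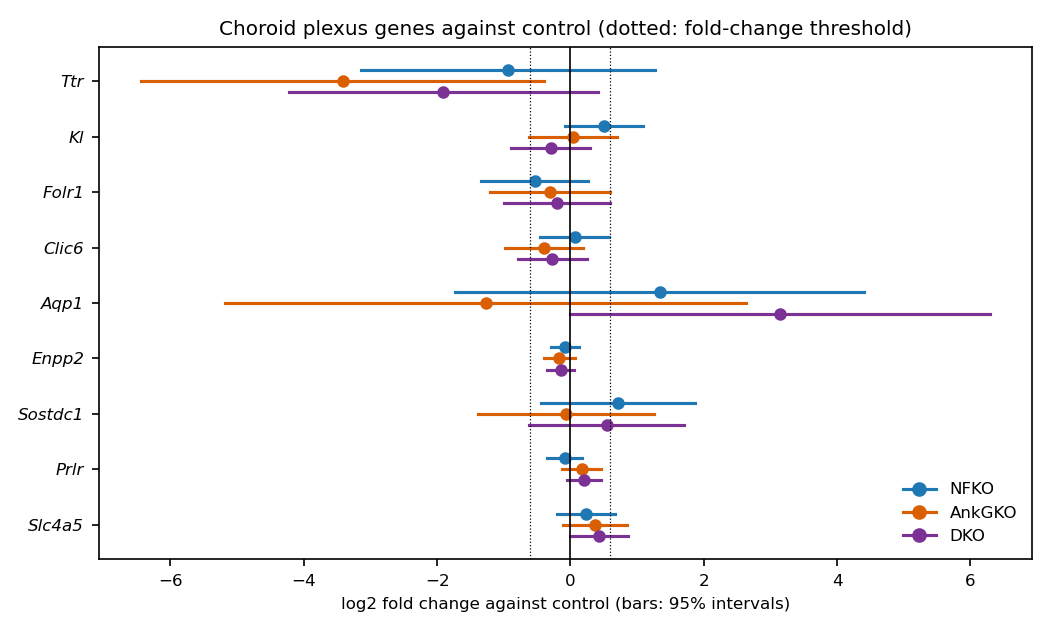
Log2 fold change of 9 choroid plexus genes in each knockout against control (points, edgeR) with nominal 95% intervals (bars, 1.96 standard errors either side), and dotted lines at the fold-change threshold of 0.6. Otx2 is left out because of its zeros. A bar clear of 0 need not mean an unadjusted p under 0.05, as for Ttr in AnkGKO (0.0569, edgeR quasi-likelihood test). Bars for Enpp2 and Prlr lie within the dotted lines, and those for Ttr and Aqp1 span several log2 units.

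Against control the 10 genes shared no direction. In NFKO 5 were higher and 5 lower (median log2 fold change -0.01), and in AnkGKO 3 were higher and 7 lower (-0.23). In DKO 4 were higher and 6 lower (-0.17), and the median over all genes lay within 0.01 of 0 each time. In DKO against NFKO 4 were higher and 6 lower (-0.12). In DKO against AnkGKO 9 were higher and 1, Kl, lower (0.12, with 0.0033 over all genes). In AnkGKO the libraries did not overlap with the controls for Ttr, Aqp1 and Enpp2 (lower) and Slc4a5 (higher), and with 2 libraries against 3 the same held for 12.3% of all genes in the lower and 11.7% in the higher direction. In DKO against control this held only for Prlr (higher), against 7.65% of all genes in that direction and 6.8% in the lower, and in NFKO against control for 0 of 10, against 7.42% higher and 6.51% lower. In DKO against NFKO it held for Kl (lower, 10% of all genes) and Prlr (higher, 9.32%), and in DKO against AnkGKO for Ttr (higher, 12.4% of all genes, with 11.3% lower). The depth and spread allowed unequal precision. Enpp2 and Prlr differences beyond 0.50 on the log2 scale in either direction lay outside the intervals against control, but for Ttr and Aqp1 the intervals ran from -6.44 to 1.27 and from -5.18 to 6.29 over the 3 comparisons.

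To see whether other choroid plexus genes behaved alike, 33 further genes of the tissue were examined. All 33 were in the table and tested, and summed to 1158 to 1750.1 CPM. The most abundant per kilobase were Slc12a2, the sodium potassium chloride cotransporter (45.7 CPM per kb), Igf2, a growth factor of choroid plexus and meninges (43.1), and Car14, a membrane carbonic anhydrase (38.5). These are not restricted to choroid plexus. Genes more restricted to it were low: Kcne2, a potassium channel subunit, was at 0.0372 to 0.257 CPM, and Cldn2, a claudin of its leaky tight junctions, at 0.0238 to 0.234 CPM.

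**Figure D5:**
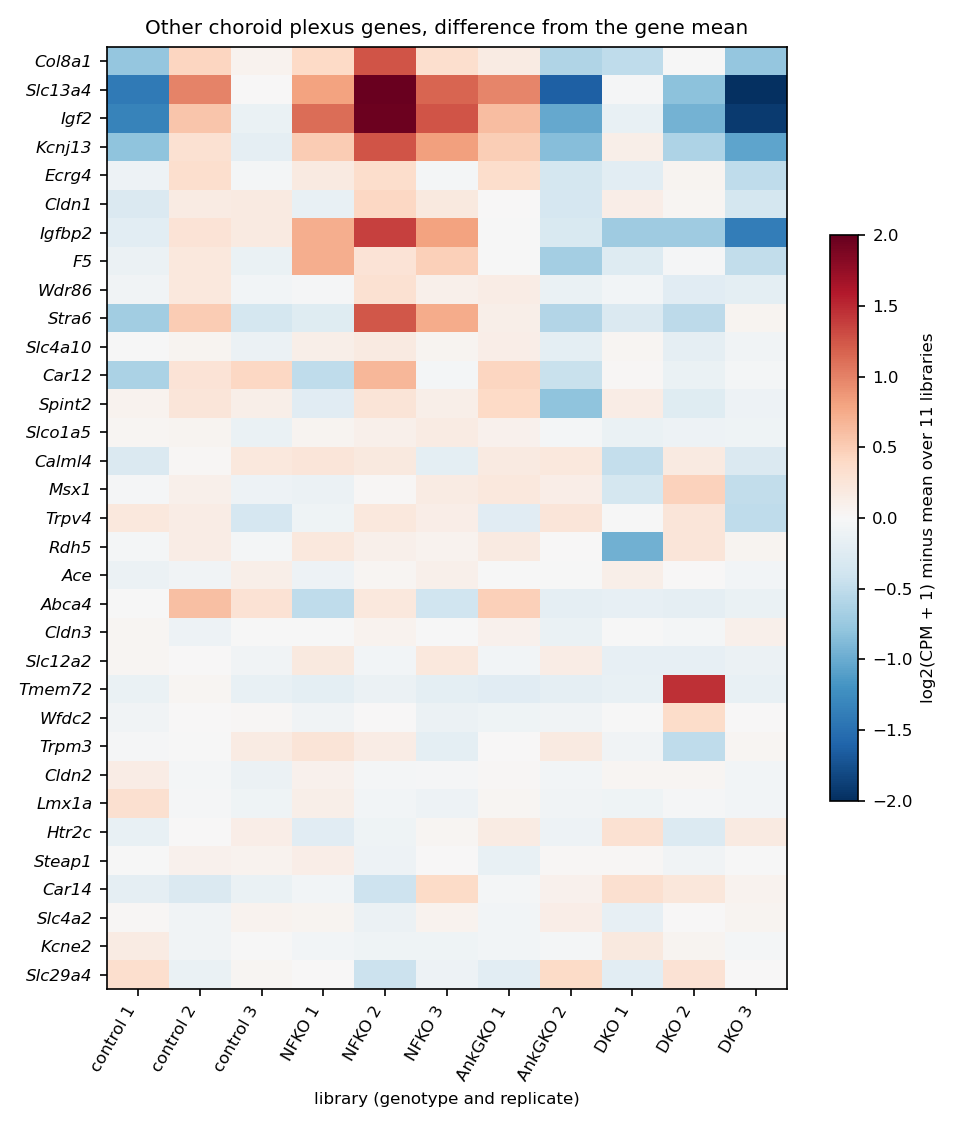
Difference of log2(CPM + 1) from the gene's own mean over 11 libraries (colour, ending at 2 in either direction) for 33 further choroid plexus genes (rows, sorted from most to least alike the meningeal fibroblast list over libraries) in each library (columns). The upper rows, Slc13a4, Igf2 and Kcnj13 among them, are highest in NFKO 2 and low in DKO 3, and Tmem72 is high in DKO 2 alone.

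Of the 33, edgeR called 0 against control in any knockout. DESeq2 called 1, 0 and 1 in NFKO, AnkGKO and DKO (0.945%, 0.582% and 0.272% of all genes). At an unadjusted p under 0.05 edgeR found 4 (7.69% of all genes), 0 (5.39%) and 2 (7.77%) in the same order. It found 11 in DKO against NFKO (16.2%), 3 in DKO against AnkGKO (8.48%), 6 in the interaction (10.3%) and 5 for any difference (11.3%). Against control, 24 of the 33 were higher in NFKO, 17 in AnkGKO and 8 in DKO. In DKO against NFKO 1 was called, Igfbp2, which encodes an insulin-like growth factor binding protein of choroid plexus, meninges and astrocytes. It stood at 34.0, 47.6 and 44.4 CPM in controls, 65.6, 103 and 69.4 CPM in NFKO, 39.0 and 31.5 CPM in AnkGKO and 23.5, 23.5 and 14.5 CPM in DKO, so that NFKO lay above and DKO below every other group. Igfbp2 fell by 1.95 on the log2 scale from NFKO to DKO (standard error 0.25, edgeR adjusted p = 0.00869). It was also called in the test of any difference among genotypes (adjusted p = 0.0284; 0.0547 with replicate number as a block, and 0.0270 to 0.0770 with single libraries left out, 8 of which ended the call), but not in NFKO against control (0.92, adjusted p = 0.273) or DKO against control (-1.04, adjusted p = 0.528). DESeq2 called Igfbp2 in all of these and in the interaction, and F5 and Igf2 besides in DKO against NFKO and for any difference. Fitted on the 6 libraries of NFKO and DKO alone, the Igfbp2 difference was -1.95 with adjusted p = 0.0574, and without control 1, NFKO 1 and DKO 2 it was -2.18 with adjusted p = 0.0597.

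Igfbp2 did not stand alone in that comparison. In DKO against NFKO, 10 of the 33 had all DKO libraries below all NFKO libraries, against 10% of all genes tested, and 1 had them above, against 9.32%. Igf2 was at 255, 460 and 281 CPM in NFKO and 105, 60.7 and 30.3 CPM in DKO (log2 difference -2.34, standard error 0.70, adjusted p = 0.184). Slc13a4, a sulphate transporter, was at 14, 32.9 and 18.2 CPM in NFKO and 7.47, 3.90 and 1.09 CPM in DKO (-2.40, 1.06, adjusted p = 0.324). Kcnj13, a potassium channel of the apical choroid plexus membrane, was at 1.95, 3.95 and 2.64 CPM in NFKO and 1.24, 0.350 and 0 CPM in DKO, where 0 allows up to 0.0546 CPM (counting error only). Of the 33, 10 were highest in NFKO 2, the library highest in all 14 meningeal fibroblast genes, and 8 were lowest in DKO 3, the library lowest in 10 of those 14. The part of meningeal, Schwann or other cells in Igfbp2 and in these genes was not tested.

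Tmem72 followed a single library, and Lmx1a was at low counts throughout. Tmem72, a membrane protein of choroid plexus and kidney, was at 2.27 CPM in DKO 2 and at most 0.221 CPM in the other 10, as Aqp1 and the sensory neuron genes were highest there. Lmx1a, a roof plate transcription factor also used in cerebellar precursors, was at 0.39 CPM in control 1, the library highest in Otx2 and Ttr. It was at 0.210 CPM in NFKO 1 and at most 0.144 CPM elsewhere. Its largest count in any library was 15.

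Candidates for likeness were about 13909 genes with a mean of at least 1 CPM, which left out Folr1, Otx2, Sostdc1, Kcne2 and Cldn2. Choroid plexus genes were a small part of them, so how rarely such genes appeared carries no weight. Over the 11 libraries, the 3 candidates most alike each choroid plexus gene in log2 CPM were taken. For Enpp2 they were Kcnk13, Olig2 and Zdhhc6 (Pearson r = 0.95, 0.93 and 0.93), of which Olig2 is the transcription factor of the oligodendrocyte lineage. For Kl they included Col4a4 and Npr1 (0.94 and 0.94), for Aqp1 they were Sfrp4, Scn7a and C77080 (0.93, 0.92 and 0.92) and for Ttr Cubn, Zfp862 and Cnnm4 (0.93, 0.93 and 0.92). For Clic6, Sostdc1, Prlr and Slc4a5 the 3 most alike genes had r of 0.86 to 0.92. The 11 points share genotypes, libraries and their tissue content, and for Aqp1 a single library, DKO 2, sets the range. Folr1 and Otx2 fell short of 10 counts in some library and were left out.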

How the data were processed

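PolyA RNA-seq libraries of 11 samples (control n = 3, NFKO n = 3, AnkGKO n = 2, DKO n = 3) were grouped by GEO's labels. Per the submitters' processing notes and the study's methods, the authors used FastQC 0.12.1, Trimmomatic 0.39, STAR 2.7.11a on GRCm39, R 4.3.2 and DESeq2 1.40.2. Labels give single-end reads of 100 bases, the methods paired-end reads. The deposited counts are raw reads per gene. A second deposited table holds normalized signal, the authors' counts divided by a size factor of 0.815 to 1.16 per library (100% of values came back whole within 0.001), and added no information. The 5 summary lines were left out of library sizes. Reads outside genes came to 9.23% to 10.4%, and reads aligned to several places to 32.5% to 34.3%.

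Counts were tested with edgeR 4.0.16 in R 4.3.3 (TMM, robust quasi-likelihood fit over all 4 genotypes) on genes whose counts summed to 10 or more, with Benjamini-Hochberg adjustment over all 17557 genes. Standard errors came from the log2 fold change and the F statistic. Log2 CPM used a prior count of 1, and lengths came from GENCODE on GRCm39. DESeq2 1.42.0 and other filters, scalings and subsets were alternatives. The fit was tested on simulated data. Same-numbered NFKO and control libraries deviated together (r = 0.56, 0.47 and 0.26). The labels tie them by number only, and the main fit used no pairing. The choroid plexus genes and marker lists were chosen with earlier results of these data known. Named genes were the 10 genes, those of the 33 that were called or were the 3 most abundant per kb, and the 3 most alike genes, of which 1 is not reported here. Igf2 (in its values by library), Slc13a4, Kcnj13, Kcne2, Cldn2, F5, Tmem72, Lmx1a, Scn10a, Avil and Mrgprd were named after their values were seen. Replicates numbered 2 to 3 per genotype, so no sample was tested as an outlier.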

Additional observations from a re-analysis of the deposited data

How the results depend on the processing

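None of the 10 choroid plexus genes was called in any of the 7 tests under any alternative that was run. These were another scaling, other filters, DESeq2, a replicate block, each library left out, and 2 or 3 libraries left out together. Fits of the compared libraries alone were run for the comparisons of 2 groups only. The smallest adjusted p of any log2 difference of the 10 genes was 0.0626 (Kl, DKO against NFKO, DESeq2). Leaving out control 1 and NFKO 1, leaving out these with DKO 2, and giving ranges and means without the highest library of a gene were chosen after seeing the data. DESeq2 changed the count over all genes most, calling 159, 102, 44, 418, 99, 314 and 1137 genes where edgeR called 64, 29, 4, 108, 30, 93 and 127 (the order is each knockout against control, then DKO against NFKO and AnkGKO, the interaction and any difference). Fitted on their own libraries, DKO and AnkGKO gave 11 calls in place of 30. Single libraries moved these counts too. Without NFKO 1 edgeR called 40 genes in NFKO against control, 68 in DKO against NFKO and 82 for any difference. Without DKO 2 it called 8 in DKO against control, and without control 1 it called 58 in the interaction. In DKO against AnkGKO it called 18 without DKO 1 and 12 without DKO 3, where the interaction gave 61. Without control 1 and NFKO 1, edgeR called 29 genes in NFKO against control, 59 in DKO against NFKO, 41 in the interaction and 62 for any difference. Without DKO 2 as well it called 31 (NFKO), 18 (AnkGKO) and 9 (DKO) against control and 55 in the interaction.

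The direction of several log2 differences turned with the libraries used, and the cause was not tested beyond leaving libraries out. Without control 1 and NFKO 1, NFKO against control was 0.84 for Ttr, AnkGKO against control -0.21 for Kl, and DKO against control 0.038 for Ttr and 0.0025 for Folr1. Without DKO 2 as well, NFKO against control was again 0.84 for Ttr and AnkGKO against control -0.21 for Kl, while DKO against control was 0.14 for Folr1, -1.13 for Aqp1 and -0.83 for Sostdc1. With single libraries left out, NFKO against control ran from -1.46 to 1.01 for Ttr and -0.16 to 0.29 for Clic6, AnkGKO against control from -0.48 to 0.42 for Kl and -0.50 to 0.28 for Sostdc1, and DKO against control from -2.95 to 0.038 for Ttr, -0.59 to 0.0024 for Folr1, -1.03 to 3.71 for Aqp1 and -0.65 to 0.93 for Sostdc1. With replicate number as a block, AnkGKO against control was 0.039 for Sostdc1; apart from the Igfbp2 call for any difference, the block changed no call. Between pairs of groups other than NFKO and control, not every same-numbered pair deviated together (the lowest r were -0.47 for AnkGKO and control, -0.11 for DKO and control, 0.05 for DKO and NFKO and -0.18 for DKO and AnkGKO). In every pair of groups the labels tie samples by number only. Of 576 further values of these genes under alternatives, in comparisons whose differences are not printed above, 37 changed direction and 0 passed the threshold. Otx2 in DKO against AnkGKO had no value without DKO 2, since all those libraries were at 0. Leaving out a library of AnkGKO left 1, which was taken to vary like the other groups.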
